A study of Mus musculus with 32 samples.

Results

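The 10 genes Cdkn1a, Ccng1, Gadd45a, Bax, Bbc3, Pmaip1, Phlda3, Trp53inp1, Sesn2 and Mdm2 are well-known transcriptional targets of p53, the transcription factor encoded by Trp53. They were chosen by name as known targets, with earlier results of these data known. All 10 were found among the 26629 named genes of the expression table. Retinas came from female C57 BL/6J mice that were launched at 16 weeks of age and spent 37 days in flight aboard the space station, and from ground control mice housed on Earth in matching enclosures, both 21 weeks old by their labels. RNA sequencing gave 9 spaceflight libraries (4 left and 5 right eyes) and 7 ground control libraries (2 left and 5 right eyes), and reduced representation bisulfite sequencing (RRBS), which reads DNA methylation in CpG-rich fragments, gave 8 spaceflight and 8 ground control libraries, with 1 retina of 1 mouse in each library. Both groups were killed and frozen at the same time, flown mice in orbit, and the eyes were taken from briefly thawed carcasses, refrozen and dissected into retina, cornea and lens. The labels name no transgene and no drug in either group. The 10 genes were compared between the retinas of flown and ground control mice.

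In an unstressed cell p53 is made all the time and is degraded as fast, because the ubiquitin ligase MDM2 marks it for destruction. DNA breaks, replication stress and other damage activate kinases such as ATM and ATR, which modify p53 and free it from MDM2. p53 then binds its response elements, which are made of a pair of half-sites, and induces genes that halt the cell cycle, repair DNA, restrain growth or trigger cell death, together with Mdm2 itself, which closes the loop. Neurons of the adult retina no longer divide, so that the arrest genes are known there mostly as damage and stress reporters, and the death genes for their part in the loss of photoreceptors and ganglion cells after injury.

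Several libraries stood apart before any comparison. The RNA library M21 is given as spaceflight in its source name but as ground control in its condition label; it was counted as spaceflight. M21 and M22 carried epithelial transcripts: the 7 listed markers of cornea and epidermis, all matched, summed to 914.7 FPKM in M21 and 1029 FPKM in M22, against 15.5 to 66.0 FPKM in the other spaceflight libraries and 17.0 to 98.1 FPKM in ground control libraries, with Krt5 and Krt14 at 0 in some spaceflight libraries. Krt12, the keratin that defines corneal epithelium, was low in both, at 2.10 FPKM in M21 and 1.75 FPKM in M22. The 7 lens markers summed to 28672 FPKM in M22 and 42031 FPKM in the ground control library M31, against 1.39 to 1544 FPKM in all the others, with Cryba1, Cryba4 and Crygs at 0 in some. Of the genes tested, 26.6% lay at least 1.5-fold from their median over all libraries in M31, 21.5% in M40 and 15.9% in M32, all 3 ground control, and no more than 10.9% in any other library. The 15 retinal markers were found in every library and summed to 13520 to 28790 FPKM in spaceflight and 18156 to 27821 FPKM in ground control retinas. M22 (13520) and M21 (14149) were the lowest of all, and M31 was the lowest ground control library. The 5 skeletal muscle markers summed to 62.7 FPKM in M21 and 141.8 FPKM in M22, against 1.76 to 6.36 FPKM in the other spaceflight libraries and 1.26 to 73.5 FPKM in ground control libraries. What these libraries contributed to a result was measured by leaving them out, a choice made after seeing the data; M32 and M40 were picked because several members deviate together in them, so values without that pair are a description of how far the pair carries a result.

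The unit of level, FPKM, divides the fragments of a gene by the length of its transcript and by the size of the library, which allows genes to be set side by side. Ccng1 was the highest of the 10, with a mean of 37.5 ± 4.92 FPKM (SD, n = 9) in spaceflight and 32.8 ± 11.8 FPKM (SD, n = 7) in ground control retinas. Mdm2 followed with 27.7 ± 1.79 FPKM in spaceflight and 23.1 ± 5.33 FPKM in ground control retinas. Gadd45a, Bax and Trp53inp1 lay between 6.69 and 11.3 FPKM on average in spaceflight retinas and between 5.50 and 10.6 FPKM in ground control retinas. Cdkn1a, Phlda3 and Sesn2 averaged 3.38 to 4.81 FPKM in spaceflight and 2.75 to 4.38 FPKM in ground control retinas, with ranges that overlapped in both groups. Bbc3 and Pmaip1, the genes of the lethal BH3-only proteins PUMA and NOXA, were scarce. Bbc3 averaged 0.63 FPKM in spaceflight and 1.07 FPKM in ground control retinas, and Pmaip1 averaged 0.353 FPKM in spaceflight and 0.249 FPKM in ground control retinas, so that 8 of the 10 members reached 1 FPKM in all 16 libraries and entered the fit across genes.

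No member passed the test. In the limma fit over 12460 genes, genes counted as called had to change 1.2-fold or more with p no larger than 0.05 before and 0.3 after adjustment. Of the 8 members 0 met this, against 0.193% of all genes (10 higher and 14 lower after spaceflight). At an unadjusted p of 0.05 alone, 5 of the 8 members were found, 3 higher and 2 lower, whereas 11.4% of all genes passed that mark, made up of 5.93% higher and 5.45% lower after spaceflight. Because the members were chosen with earlier results of these data known, this contrast is a description and not independent evidence. Exact permutation of the libraries gave 4 of the 8 at that mark. The smallest adjusted p among the members was 0.383 by limma. The median log2 change of the 8 was 0.18, beside -0.01 over all genes tested. No member had spaceflight and ground control libraries that did not overlap, which held for 0.0883% of all genes. In bulk retina, fewer cells of a type and less RNA per cell cannot be told apart.

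**Figure D1:**
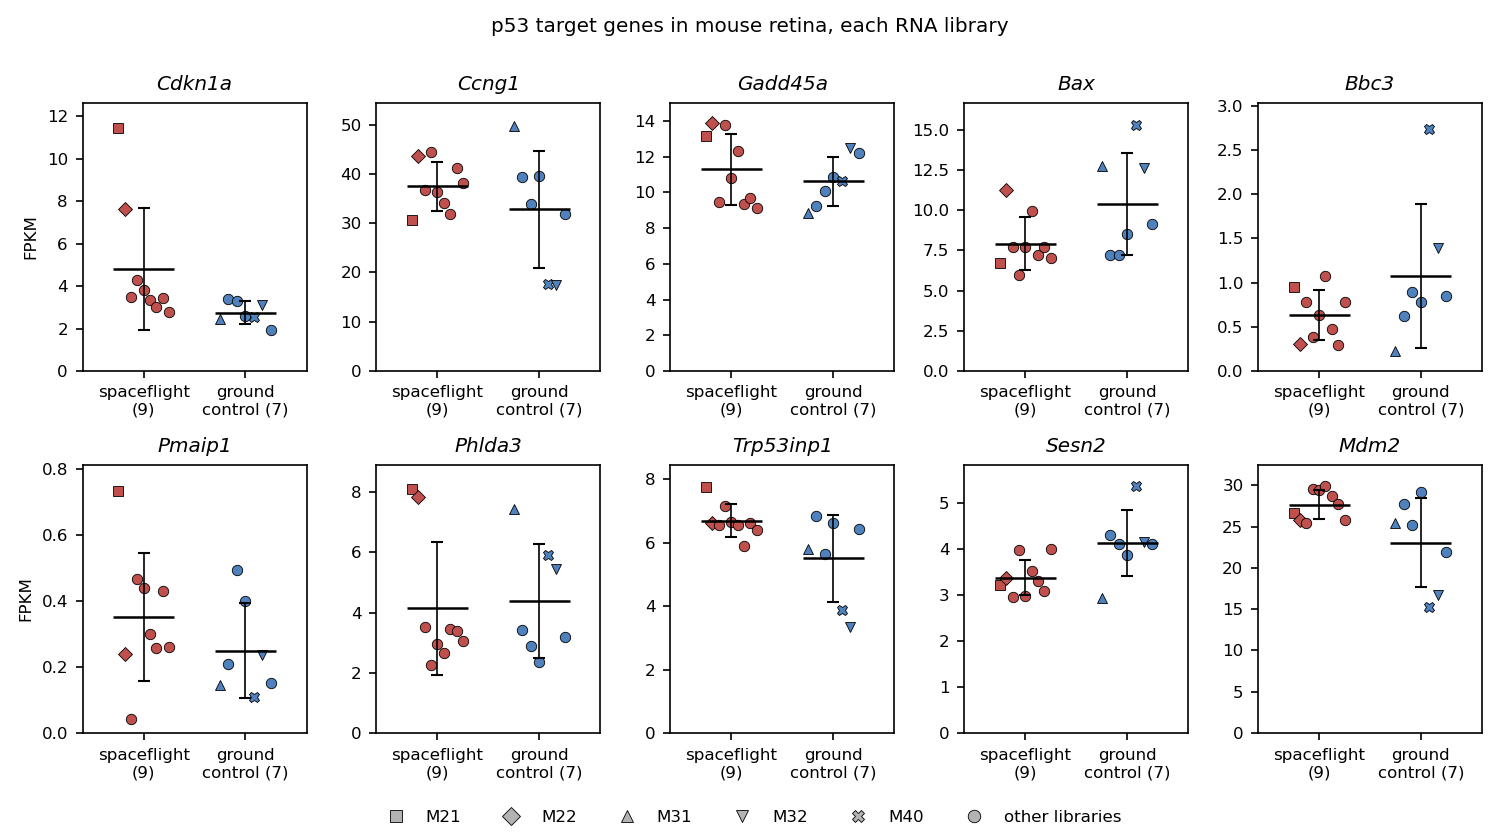
FPKM of each member (vertical axis, from 0) in the 9 spaceflight and 7 ground control RNA libraries; points are libraries, horizontal lines means and bars SD. The 5 libraries that stood apart have their own symbols: M21 and M22 sit at the top for Cdkn1a and Phlda3, and M32 and M40 at the bottom for Ccng1, Mdm2 and Trp53inp1.

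Cdkn1a encodes p21, the inhibitor of cyclin-dependent kinases that carries out much of the arrest downstream of p53. Its lowest, median and highest values were 2.79, 3.49 and 11.5 FPKM in spaceflight retinas, against 1.91, 2.58 and 3.41 FPKM in ground control retinas. The highest, 11.5 FPKM, was M21 and the next, 7.63 FPKM, was M22, while the other 7 spaceflight libraries held 2.79 to 4.31 FPKM. All 9 spaceflight libraries exceeded the ground control median and 6 exceeded its highest library. The log2 change was 0.64 (95% interval 0.12 to 1.17, limma, p = 0.0187, adjusted p = 0.383; exact permutation over 11440 divisions, two-sided, p = 0.017). With M21 counted as ground control, as its condition label has it, the log2 change of Cdkn1a was 0.21 (95% interval -0.39 to 0.81, limma adjusted p = 0.812). Without M21 and M22 the means were 3.46 ± 0.504 FPKM (SD, n = 7) in spaceflight and 2.75 ± 0.533 FPKM (SD, n = 7) in ground control retinas, and the log2 change was 0.33 (95% interval 0.04 to 0.61, exact permutation p = 0.0251). Without M32 and M40 it was 0.66 (95% interval 0.04 to 1.28, exact permutation p = 0.0564). Without M21, M22, M31, M32 and M40 it was 0.32 (95% interval -0.02 to 0.66, exact permutation p = 0.0848). The higher level in M21 and M22 went with their epithelial markers, whose sums are given above. Krt5, a keratin of basal epithelium, was at 580.3 FPKM in M21 and 121.2 FPKM in M22. M21 and M22 also had the lowest retinal marker sums, and the highest skeletal muscle sums of the spaceflight libraries. Their part in the result was not tested beyond leaving both libraries out.

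The genes that moved most like Cdkn1a over the 16 libraries were Itpr2, Mal2, Sc4mol, Sc5d and Ptplb, with Pearson r of log2 FPKM between 0.87 and 0.91. Without M21 and M22 their r was 0.31 to 0.55 over 14 libraries, so that this likeness rested on those 2 libraries.

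Sites that match the p53 consensus were looked for within 2500 bases to either side of each curated RefSeq start, since they are the DNA through which p53 acts on these genes. The consensus, a pair of half-sites joined with no spacer, reads the same on both strands, and at most 2 mismatches were allowed, none at the C and the G that bound the core of each half-site. A match lay near 4 of the 10 members (Cdkn1a, Ccng1, Bax and Pmaip1), against 5.42% of 26180 genes and 5.03% of 31647 starts. The elements are printed on the strand of their gene in GRCm38, 5′ to 3′, with 5 bases on either side; capitals mark bases that match the consensus.
Cdkn1a element: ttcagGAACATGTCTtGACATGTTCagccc
Ccng1 upstream element: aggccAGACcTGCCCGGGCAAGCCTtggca
Ccng1 intronic element: ccggaAcGCAAGCCCGGGCTAGTCTgcgcc
Bax element: cccccGGGCAgGCCCGGGCTTGTCgctggc
Cdkn1a spans 29090979 to 29100722 on chromosome 17, plus strand. Its element (chr17:29090928-29090947) is centred at position -41 from the upstream one of its 2 starts. Ccng1 has one at position -186, upstream of its start (chr11:40755462-40755481) and another at position 340, in an intron (chr11:40754936-40754955). The Bax element, also intronic, lies 314 bases after the start (chr7:45466574-45466593). Each of the Cdkn1a and Ccng1 sites has 1 mismatch and the Bax site has 2. A match is a description of the letters and says nothing of binding in the retina. The search cannot find elements with bases between the half-sites or further from a start. Members without a match, Mdm2 among them, may therefore have elements that it misses.

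Ccng1 encodes cyclin G1, which recruits a phosphatase to MDM2 and is among the most responsive p53 targets in many tissues. It held 30.6, 36.7 and 44.5 FPKM (lowest, median, highest) in spaceflight retinas, against 17.5, 33.9 and 49.8 FPKM in ground control retinas. The ground control group held both ends: M31 was the highest of all and M32 and M40, at 17.5 and 17.7 FPKM, the lowest. Between the groups the log2 change was 0.27 (95% interval -0.12 to 0.67, limma, adjusted p = 0.556), and without M32 and M40 it was -0.05 (95% interval -0.29 to 0.19).

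Gadd45a encodes a small protein that binds PCNA and p21 and acts in repair and arrest. Its lowest, median and highest values were 9.13, 10.8 and 13.9 FPKM in spaceflight retinas, against 8.84, 10.7 and 12.5 FPKM in ground control retinas. The groups overlapped over nearly their whole range, and the log2 change was 0.08 (95% interval -0.16 to 0.31, limma, adjusted p = 0.795).

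Of the genes that promote cell death, none was higher after spaceflight past the test. Bax encodes the effector that opens the outer mitochondrial membrane. It held 5.99, 7.68 and 11.2 FPKM (lowest, median, highest) in spaceflight retinas, against 7.18, 9.12 and 15.3 FPKM in ground control retinas. The 3 ground control libraries above every spaceflight library were M31, M32 and M40, at 12.6 to 15.3 FPKM, and the other 4 held 7.18 to 9.12 FPKM. For Bax the log2 change was -0.36 (95% interval -0.70 to -0.01, limma, adjusted p = 0.433; exact permutation p = 0.0645). Without M32 and M40 it was -0.17 (95% interval -0.50 to 0.16), and without M21, M22, M31, M32 and M40 it was -0.08 (95% interval -0.33 to 0.17).

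Bbc3 encodes PUMA, which frees BAX from its BCL-2 family inhibitors. It held 0.296, 0.633 and 1.077 FPKM in spaceflight retinas, against 0.225, 0.854 and 2.74 FPKM in ground control retinas, with M40 (2.74 FPKM) and M32 (1.40 FPKM) the highest. Pmaip1 encodes NOXA, which blocks the survival protein MCL1. It held 0.0417, 0.2995 and 0.733 FPKM in spaceflight retinas, against 0.109, 0.209 and 0.495 FPKM in ground control retinas. Both genes overlapped between the groups, and the exact permutation p was 0.202 for Bbc3 and 0.328 for Pmaip1.

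Phlda3 encodes a protein that competes with AKT for membrane lipids and so dampens survival signals. It held 2.26, 3.39 and 8.09 FPKM in spaceflight retinas, against 2.37, 3.42 and 7.46 FPKM in ground control retinas. The values fell in a low and a high range in both groups: M21, M22, M31, M40 and M32 held 5.45 to 8.09 FPKM, and every other library held 2.26 to 3.53 FPKM. The log2 change was -0.11 (95% interval -0.71 to 0.49, limma, adjusted p = 0.884), and without those 5 libraries it was 0.03 (95% interval -0.26 to 0.33). M21 and M22 had the highest cornea and epidermis sums and M22 and M31 the highest lens sums, while M32 and M40 had neither. The 7 fibroblast and sclera markers summed to 109.6 FPKM in M21, 156.2 in M22, 264.5 in M31 and 126.3 in M32, against 12.1 FPKM in M40 and no more than 67.7 FPKM in any other library. The part of these markers in the high values was not tested.

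Trp53inp1 encodes a stress-induced nuclear protein that assists p53 and also takes part in autophagy. It held 5.89, 6.61 and 7.75 FPKM in spaceflight retinas, against 3.33, 5.79 and 6.85 FPKM in ground control retinas. Spaceflight over ground control gave a log2 change of 0.32 (95% interval 0.04 to 0.60, limma, p = 0.0294, adjusted p = 0.406; exact permutation p = 0.0159). All 9 spaceflight libraries lay above the ground control median. The lowest values of all were M32 and M40, at 3.33 and 3.87 FPKM, and without them the log2 change was 0.09 (95% interval -0.07 to 0.25).

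Sesn2 encodes sestrin 2, a leucine sensor that restrains mTORC1 and is induced by p53 and by ATF4. It held 2.96, 3.31 and 3.996 FPKM in spaceflight retinas, against 2.93, 4.12 and 5.38 FPKM in ground control retinas. The 9 spaceflight libraries all lay below the ground control median, and 5 of the 7 ground control libraries lay above every spaceflight library; M31, at 2.93 FPKM, was the lowest of all. The log2 change was -0.27 (95% interval -0.50 to -0.04, limma, p = 0.0247, adjusted p = 0.389; exact permutation p = 0.0205). It was -0.26 without M21 and M22, -0.18 without M32 and M40, and -0.27 without M21, M22, M31, M32 and M40 (95% interval -0.50 to -0.04, exact permutation p = 0.0242), the sole member below an unadjusted p of 0.05 in that smallest set of libraries, with an adjusted p of 0.835 by limma.

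Mdm2, the feedback inhibitor of p53, held 25.5, 27.7 and 29.9 FPKM in spaceflight retinas, against 15.3, 25.2 and 29.1 FPKM in ground control retinas. The 9 spaceflight libraries spanned a narrow range that 4 of the 7 ground control libraries lay below. M40 and M32 held 15.3 and 16.7 FPKM, and the remaining 5 held 21.9 to 29.1 FPKM. The log2 change was 0.30 (95% interval 0.04 to 0.55, limma, p = 0.0235, adjusted p = 0.384; exact permutation p = 0.0177), and without M32 and M40 it was 0.10 (95% interval -0.05 to 0.25, exact permutation p = 0.156).

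**Figure D2:**
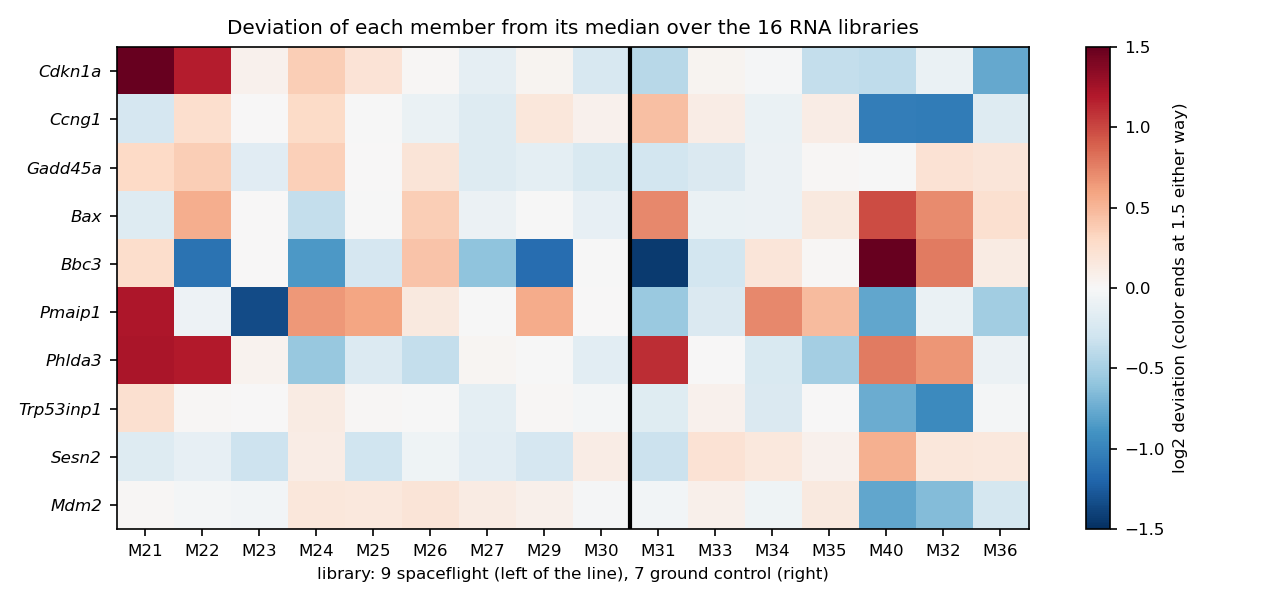
Log2 deviation of each member (rows) from its own median over the 16 RNA libraries (columns, 9 spaceflight left of the line and 7 ground control right of it); red is above and blue below the median. M40 and M32 are low for Ccng1, Mdm2 and Trp53inp1 and high for Bax, Bbc3 and Phlda3, and M21 and M22 are high for Cdkn1a and Phlda3.

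The members did not vary as 1 group. Mdm2, Ccng1 and Trp53inp1 went together over the 16 libraries, with Pearson r of 0.81 to 0.87 between their log2 FPKM, but r was -0.09 to 0.27 over the 14 libraries without M32 and M40. Cdkn1a had an r of 0.27 with Mdm2 and 0.14 with Ccng1, and Bax had an r of -0.71 with Mdm2. These are descriptions, since all genes of a library share its depth and any other tissue in it. The genes closest to Ccng1 were LOC100862108, Tmed7, Commd8, LOC100861767 and Arl5a (r 0.96 to 0.97, and 0.78 to 0.87 without M32 and M40), and those closest to Mdm2 were Ap3m1, Armc1, Capn7, Yme1l1 and Pnpla8 (r 0.97 to 0.98, and 0.80 to 0.93 without them). None of these genes is in the list of other p53 targets.

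**Figure D3:**
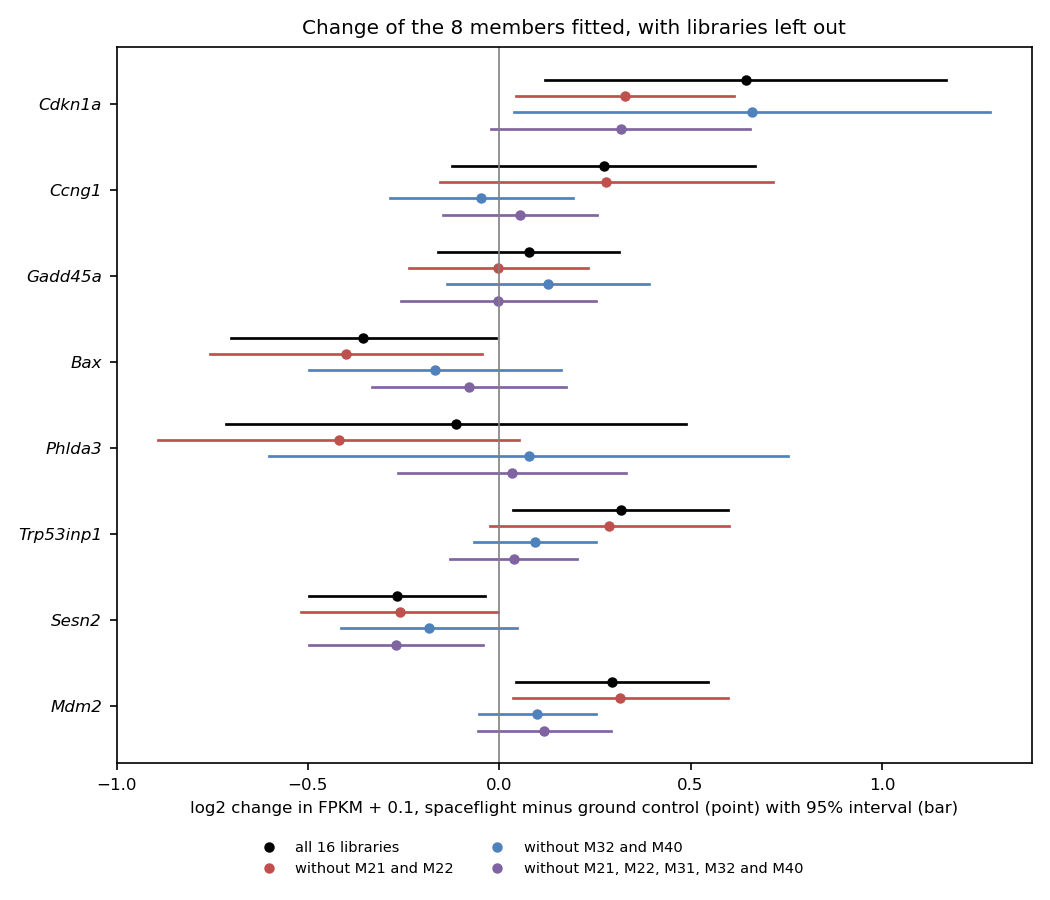
Log2 change of the 8 members fitted (points, spaceflight minus ground control) with 95% intervals from limma (bars), with all 16 libraries and with 3 sets of libraries left out. Without M32 and M40 the intervals of Mdm2, Trp53inp1, Bax, Sesn2 and Ccng1 include 0, and without M21 and M22 the change of Cdkn1a is 0.33 in place of 0.64.

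Single libraries decided how many genes were called, members included. Without M31, 5 of the 8 were called by limma: Cdkn1a (log2 change 0.62), Ccng1 (0.39), Trp53inp1 (0.34) and Mdm2 (0.33) as higher and Sesn2 (-0.34) as lower after spaceflight, with adjusted p between 0.213 and 0.282. Without M33, Cdkn1a, Mdm2, Trp53inp1 and Bax were called, and without M35 Mdm2 and Trp53inp1, whereas leaving out any other single library gave 0 members. Over all genes these 3 fits called 1400 of 12578, 754 of 12483 and 885 of 12483 genes, in place of 24 of 12460. At an unadjusted p of 0.05 alone the members numbered 5 of 8 in each, as with all libraries (against 16.5%, 14.4% and 14.3% of all genes). Without M31 Cdkn1a was called though its unadjusted p, 0.0303 by limma, was larger than the 0.0187 with all libraries. The call of Cdkn1a thus moved with the adjustment over all genes. For other members the unadjusted p moved as well. Without M31 that of Sesn2 went from 0.0247 to 0.00236 and that of Ccng1 from 0.165 to 0.0408 by limma. That of Mdm2 went from 0.0235 to 0.0113 without M33 and to 0.00747 without M35 by limma. In the other direction, the number of members at an unadjusted p of 0.05 was 1 of 8 without M40 (against 7.29% of all genes), 2 of 8 without M32 (against 7.27%) and 3 of 8 without M21 (against 9.86%). Without both M32 and M40 it was 1 of 8 by limma (12.5%, against 5.23% of all genes), namely Cdkn1a. Its p there was 0.0385 by limma (adjusted p = 0.94) and 0.0564 by exact permutation. With M21 counted as ground control it was again 1 of 8, against 7.57% of all genes, but that member was Mdm2 (log2 change 0.27, limma adjusted p = 0.633); Cdkn1a, Trp53inp1, Bax and Sesn2 were not found.

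Trp53 itself, upstream of the members, held 5.86, 7.60 and 10.3 FPKM (lowest, median, highest) in spaceflight retinas, against 6.39, 7.54 and 10.97 FPKM in ground control retinas, with a log2 change of -0.01 (95% interval -0.30 to 0.28, limma, adjusted p = 0.979). Activation of p53 is largely by its protein, which RNA does not measure. Of the 19 genes of p53 and its regulators, 13 were tested and none was called. The median log2 change of the 13 was 0.09. At an unadjusted p of 0.05, 4 were higher and 0 lower (30.8%, against 11.4% of all genes). Those 4 were Trp53bp1, a scaffold at DNA breaks (0.18), Mdm4, the partner of MDM2 (0.29), and the damage kinases Atr (0.30) and Prkdc (0.28), with adjusted p of 0.384 to 0.392 by limma. M32 and M40 were the lowest of all libraries for Trp53bp1, Atr and Prkdc. Without that pair the log2 change was 0.12 for Trp53bp1, 0.16 for Atr and 0.11 for Prkdc, each with a 95% interval that included 0, and 0.29 for Mdm4. Mdm4 held 9.45, 11.6 and 16.6 FPKM in spaceflight retinas, against 8.41, 9.62 and 10.9 FPKM in ground control retinas; its highest library was M21.

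Among 32 other p53 targets, 20 were tested and none was called, with 1 higher and 1 lower at an unadjusted p of 0.05 (10%, against 11.4% of all genes) and a median log2 change of 0.07. These were Polk, a translesion polymerase (log2 change 0.27), and Plk2, a polo-like kinase (-0.26); the next by p was Sesn1, a sestrin (0.27). The 13 paralogues of the members, of which 11 were tested, also gave 1 higher and 1 lower gene (18.2%, against 11.4% of all genes). The higher was Mdm4 and the lower Gadd45g (-0.33, limma adjusted p = 0.369), a stress-induced relative of Gadd45a. The third by p was Ccng2 (0.23), the paralogue of cyclin G1.

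Genes on which p53 targets are known to act, and genes of the damage that activates p53, were looked at in 3 further lists. Of 20 genes of the BCL-2 family and caspases, 15 were tested, and 1 was lower at an unadjusted p of 0.05 (6.67%, against 11.4% of all genes). It was the survival gene Bcl2l1 (log2 change -0.23, limma adjusted p = 0.438). Apaf1, the core of the apoptosome, had a log2 change of 0.21 and Bmf, a BH3-only gene, of -0.34. Of 19 cell cycle genes that p21 represses through the DREAM complex, only 4 were expressed enough to be tested in this postmitotic tissue. Of these 4, Ccna2, which encodes cyclin A2, was the one at an unadjusted p of 0.05 (25%, against 11.4% of all genes). It had 10.9 FPKM in the median spaceflight retina and 7.89 FPKM in the median ground control retina (log2 change 0.49, limma adjusted p = 0.347). Mcm2 had a log2 change of -0.04 and Ccne1 of 0.03. Of 15 genes of double-strand break signalling and repair, all tested, 0 had an unadjusted p of 0.05 or under by limma, against 11.4% of all genes. The smallest p belonged to Nhej1 (-0.36), Brca2 (0.21) and Brca1 (0.17), and the median log2 change was 0.04.

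Sesn2 is also a target of ATF4, the transcription factor of the integrated stress response. A list of 12 genes, made of ATF4 targets with Sesn2 among them and Atf4 itself, was therefore looked at. Of 11 tested, none was called and 3, Sesn2 included, were lower at an unadjusted p of 0.05 (27.3%, against 11.4% of all genes). The median log2 change of the 11 was -0.17. Neither value is independent of the Sesn2 result, since both count that gene. Ddit3, which encodes CHOP, held 28.9, 37.2 and 45.3 FPKM (lowest, median, highest) in spaceflight retinas, against 37.7, 50.9 and 55.4 FPKM in ground control retinas. The log2 change of Ddit3 was -0.38 (95% interval -0.59 to -0.17, limma adjusted p = 0.323), and -0.31 without M21, M22, M31, M32 and M40 (limma adjusted p = 0.759). Ppp1r15a, which encodes the phosphatase subunit GADD34, had a log2 change of -0.38 (adjusted p = 0.354). Its highest libraries were M40, M31 and M32, at 10.6 to 13.5 FPKM, and without M21, M22, M31, M32 and M40 the log2 change was -0.22 (95% interval -0.40 to -0.03, limma, adjusted p = 0.837). Sesn2 was the third of these genes.

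DNA methylation was read in other libraries, most of them from the same mice, and is not part of the rule by which the members are named. Promoters, taken as 1000 bases to either side of a curated start, were compared where at least 3 CpGs had 10 or more reads in all 16 RRBS libraries, which gave 17465 promoters, 11 of them at the 10 members, with 18 to 77 CpGs each. All 11 averaged under 10% methylation, which also held for 79.8% of all promoters. The upstream start of Cdkn1a had no such promoter value, so that Cdkn1a is represented by its downstream start.

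By exact permutation over 12870 divisions, 0 of the 11 promoters and 0.0% of all promoters passed an adjusted p of 0.05, and 1 of the 11 had an unadjusted p of 0.05 or under, against 4.85% of all promoters. That 1 was Sesn2, with 0.395%, 0.535% and 0.802% (lowest, median, highest) in spaceflight retinas, against 0.166%, 0.272% and 0.591% in ground control retinas. The difference was 0.247 percentage points over 56 CpGs with a mean of 64.1 reads each (exact permutation, two-sided, p = 0.00451, adjusted p = 0.981), and the groups overlapped. Mdm2 averaged 3.26 ± 0.121% in spaceflight and 3.40 ± 0.170% in ground control retinas (SD, n = 8 each; exact permutation p = 0.0687), and Trp53inp1 averaged 0.426 ± 0.227% in spaceflight and 0.255 ± 0.105% in ground control retinas (exact permutation p = 0.0726). At Cdkn1a the means were 0.709 ± 0.162% in spaceflight and 0.806 ± 0.322% in ground control retinas (exact permutation p = 0.51). Differences at the other 7 promoters lay between -0.0836 and 0.105 percentage points.

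**Figure D4:**
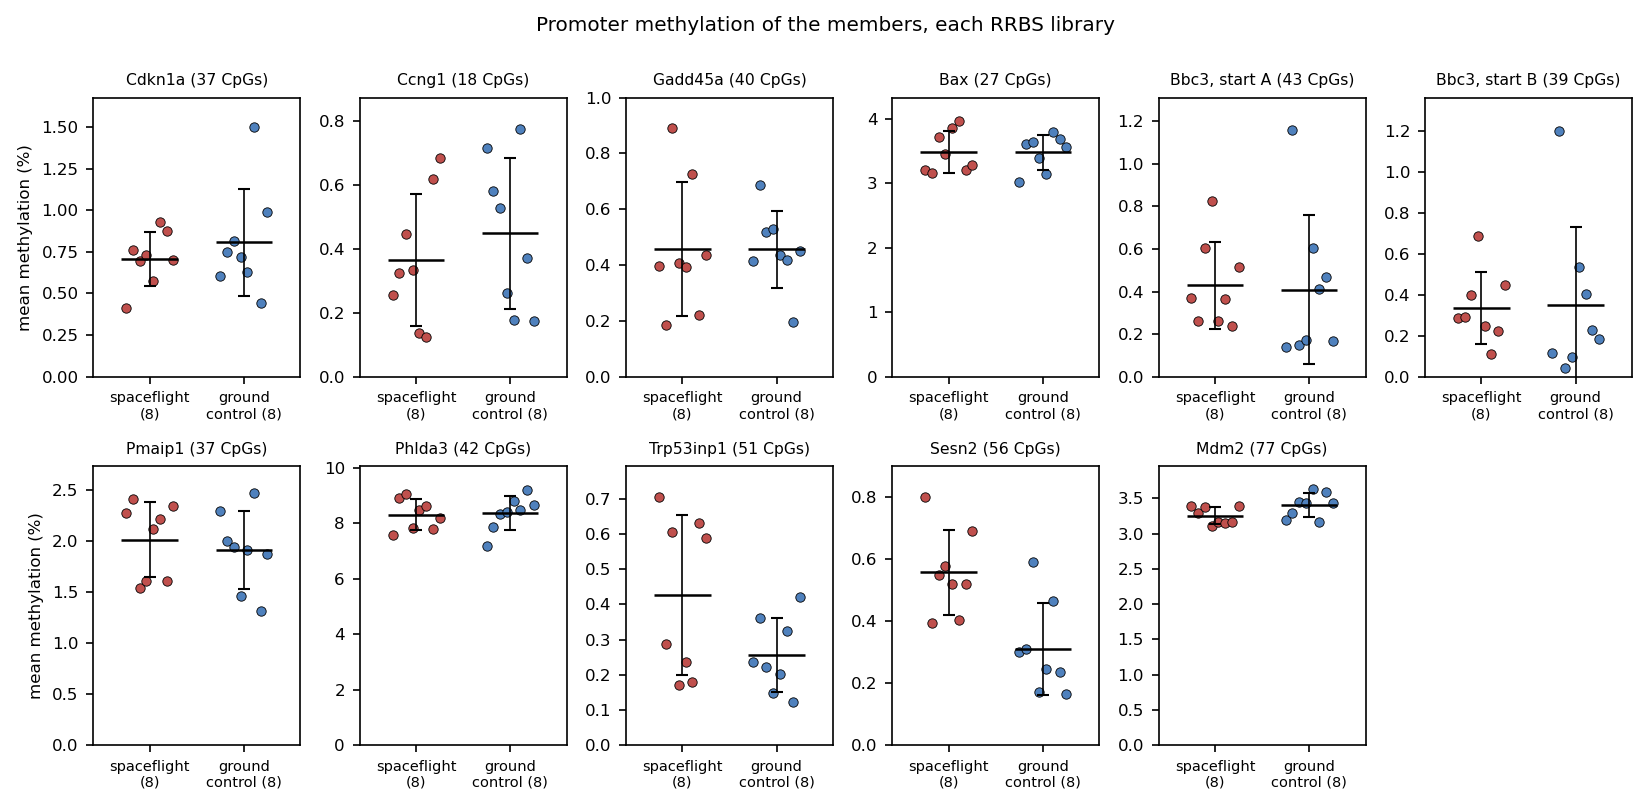
Mean methylation (percent, vertical axis from 0, own scale in each panel) of the 11 member promoters in the 8 spaceflight and 8 ground control RRBS libraries; points are mice, horizontal lines means and bars SD. Phlda3, at 8.31% in spaceflight and 8.37% in ground control retinas, is the most methylated, and Sesn2 is the one promoter with an unadjusted p under 0.05, at a difference of 0.247 points.

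To show where those readings came from, the 250 bases before the start of Sesn2 (chr4:132510457-132510706) and of Mdm2 (chr10:117710759-117711008), both on the minus strand, are printed 5′ to 3′ from the RefSeq promoters of GRCm38.p6, in which 8 of the 10 members were found. Capitals mark CpGs with 10 or more reads in all 16 libraries, 13 of the 18 CpGs of the Sesn2 stretch and 14 of the 29 of the Mdm2 stretch.
Sesn2: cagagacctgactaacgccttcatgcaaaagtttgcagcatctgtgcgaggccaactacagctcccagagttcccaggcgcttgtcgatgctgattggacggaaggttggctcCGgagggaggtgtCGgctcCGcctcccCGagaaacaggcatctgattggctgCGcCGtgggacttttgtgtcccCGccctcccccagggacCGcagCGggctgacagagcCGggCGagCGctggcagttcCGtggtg
Mdm2: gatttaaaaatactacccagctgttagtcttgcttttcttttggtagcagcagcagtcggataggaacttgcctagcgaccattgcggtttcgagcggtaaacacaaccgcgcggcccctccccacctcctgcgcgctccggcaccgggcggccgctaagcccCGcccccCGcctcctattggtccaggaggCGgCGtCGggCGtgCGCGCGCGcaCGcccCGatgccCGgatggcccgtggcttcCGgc
In both stretches the CpGs read lay in the part nearest the start, where 1 CpG of Mdm2 was not covered in every library.

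Single CpGs from 1000 bases before the start to the end of each member were tested by logistic regression with overdispersion between mice. Of 587 CpGs at the 10 members, 546 were under 10% methylated in both groups and 29 above 50%, and 561 differed by less than 2 percentage points between the groups. A call needed a difference of 10 points and an adjusted p of 0.05, which 0 of the 587 and 0.0% of the 1071573 CpGs of the whole genome met. At an unadjusted p of 0.05, 37 member CpGs (6.3%) were found, 20 higher and 17 lower, against 4.09% of all CpGs, and neighbouring CpGs share reads. With a difference of at least 10 points as well, 1 was left, against 0.193% of all CpGs.

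That CpG lies at position -819 from the start of Mdm2, at base 117711576 of chromosome 10, upstream of the gene (117688875 to 117710758, minus strand). It is 1 of the 77 CpGs in the Mdm2 promoter mean, so that the promoter and this CpG are not separate observations. Its methylation was 31.6%, 44.2% and 59.1% (lowest, median, highest) in spaceflight retinas, against 47.5%, 56.6% and 67.6% in ground control retinas. The difference was -11.6 percentage points (logistic regression over all CpGs, p = 0.0147, adjusted p = 0.865; exact permutation of the mouse percentages, added after seeing the data, p = 0.00575), and the groups overlapped. Its neighbour at position -893 was at 93.6% in spaceflight and 92.9% in ground control retinas, and the one at position -912 at 80.6% in spaceflight and 75.7% in ground control retinas. Over all CpG reads of a library, 33.9% to 42.0% were methylated in spaceflight and 39.2% to 43.9% in ground control libraries. The part of that spread in the difference at position -819 was not tested.

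At Cdkn1a and Sesn2 the CpGs above 50% sat outside the promoters compared. This did not hold for every member. CpGs above 50% lay inside those promoters at positions -893 and -912 of Mdm2, -873 of Bax, and -942 and -873 of Phlda3. At Cdkn1a 78 of 85 CpGs were under 10% and 7, between 7742 and 8170 bases after the upstream start, above 50%, and these 7 differed by -3.64 to 4.93 points. At Sesn2 56 of 60 were under 10% and 4, between 11091 and 11125 bases after the start, above 50%. None of the CpGs read lay within 100 bases of the Cdkn1a element or of the upstream Ccng1 element. Round the Bax element 15 CpGs averaged 0.329% in spaceflight and 0.386% in ground control retinas, and round the intronic Ccng1 element 4 CpGs averaged 0.28% in spaceflight and 0.376% in ground control retinas.

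**Figure D5:**
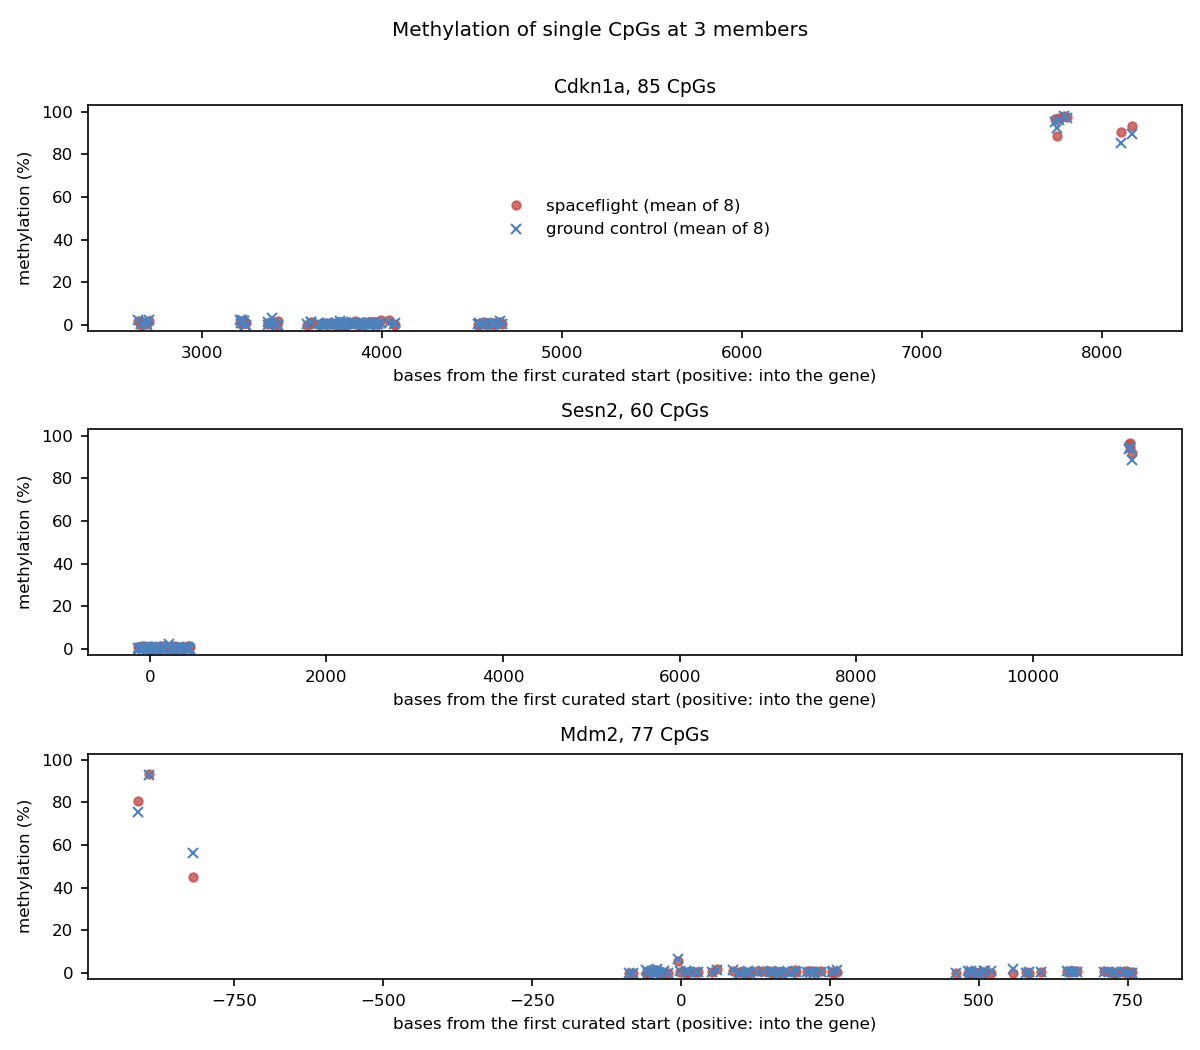
Methylation of each CpG (percent, mean of 8 mice) along Cdkn1a, Sesn2 and Mdm2 against its distance in bases from the first curated start; circles are spaceflight and crosses ground control. CpGs near the starts lie close to 0 in both groups, apart from those at positions -819, -893 and -912 of Mdm2. Those deep in Cdkn1a and Sesn2 lie above 85%. The CpG at position -819 of Mdm2 shows the widest gap, 44.8% in spaceflight and 56.4% in ground control retinas.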

How the data were processed

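RNA and DNA came from retinas of spaceflight and ground control mice. Per the labels the authors used Trimmomatic, TopHat2 and Cuffdiff for RNA, and the deposited table gives FPKM from Cufflinks on GRCm38. FPKM carries no read numbers, so the depth behind a level is unknown. For RRBS the authors used Trim Galore 0.4.5 and Bismark on GRCm38, and each deposited file lists CpG cytosines with their coverage (a count of reads) and the methylated percent. Groups were taken from the source names. For 6 ground control RNA libraries the mouse number in the label differs from that tied to their sequencing identifier in the study, and the identifier decided which column was read; 2 further sample columns were not used. Among the expression entries, 1 without a name, with up to 0.388% of a library's FPKM, was dropped.

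Expression was tested with limma 3.58.1 (R 4.3.3, mean-variance trend) on log2(FPKM + 0.1), on which fold changes of low genes are understated, for genes whose FPKM reached 1 in each of the 16 libraries, with Benjamini-Hochberg adjustment over all of them; single members were also tested by exact permutation (two-sided, smallest p 0.000175). Cuffdiff, which the authors ran on reads, cannot be run on FPKM. In RRBS both strands of a CpG were added, methylated reads were rounded to whole numbers (at least 99.98% of values lay within 0.1 reads of one), and promoters were compared by the exact permutation of mouse means (smallest p 0.000155); median coverage of a cytosine ranged over 20 to 27 reads in spaceflight and over 18 to 31 reads in ground control libraries. Python 3.11.15 with numpy 2.4.6, pandas 2.3.3 and scipy 1.17.1 was used. The limma fit, the logistic regression of CpGs and the permutation of promoters were first tested on simulated data. All 10 members are named; of each other list, genes past the call and the 3 with the smallest p, plus Trp53 and Mdm4, and as genes most like Cdkn1a, Ccng1 and Mdm2 the 5 with the highest r. Cop1, Pidd1, Tigar and Trp53cor1 were not matched by name. The members and lists were chosen with earlier results of these data known. Mice are the replicates.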

Additional observations from a re-analysis of the deposited data

Results flagged for a closer look

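Of 42 groups of values of the members (expression and promoter methylation in spaceflight and ground control libraries), 2 held 1 sample far from the others, while chance would give about 1 in 20. Both were the ground control RRBS library M32 at promoters of Bbc3, the gene of PUMA, which overlap. It was at 1.16% over the 43 CpGs of one start, where the next ground control library was at 0.606%, and at 1.199% over the 39 CpGs of another start, where the next was at 0.535%. The cause was not tested.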

How the results depend on the processing

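No member was called by limma under any of the other filters, pseudocounts, scalings or priors, with M21 as ground control, with eye as covariate or within right or left eyes. The number of genes called among all genes was 24; it was 13 with a pseudocount of 1, 15 without the trend, 14 with robust priors, 8 with eye as covariate, 1 in right eyes, and 0 in left eyes, with M21 as ground control, and in each of the 3 sets of libraries left out after seeing the data. Leaving out 1 library at a time gave 0 to 1400 genes, 0 to 5 members called, 1 to 5 members at an unadjusted p of 0.05 (5 with all libraries) and 0 to 14 genes of the pathway lists called (0 with all libraries). The number of members at an unadjusted p of 0.05 was 1 with M21 as ground control (7.57% of all genes), 3 in right eyes (14.5%), 0 in left eyes (3.33%), 1 without M32 and M40 (5.23%) and 1 without M21, M22, M31, M32 and M40 (5.75%). In left eyes, 4 spaceflight against 2 ground control libraries, Ccng1 had a log2 change of -0.22, Mdm2 of -0.00557 and Phlda3 of 0.00541, the opposite sign to the whole set; Gadd45a had -0.0261 in right eyes, -0.0029 without M21 and M22 and -0.0027 without the 5 libraries. Ccng1 had -0.0466 and Phlda3 0.0765 without M32 and M40, and Phlda3 had 0.0335 and Pmaip1 -0.0281 without the 5. Leaving out single libraries moved Cdkn1a between 0.47 and 0.72 and Phlda3 between -0.25 and 0.0303 (without M31). The eye of an RNA library is that of its own label, which has M33 as left and M32 as right, while the RRBS labels have mouse 33 as right and mouse 32 as left; results by eye with that other assignment were not computed. The smallest adjusted p of an eye by flight interaction among the members was 0.617 by limma. Promoters at an unadjusted p of 0.05 numbered 1 among the members, 2 with at least 20 reads (Trp53inp1 added), 2 with summed reads (Bax added, at -1.87 points), and 1 to 2 without single libraries. The Cdkn1a promoter difference was 0.0196 points with at least 5 reads and 0.0389 points with the wider promoter window, and ranged from -0.149 to 0.00113 points without single libraries, against -0.0975 points. Member CpGs with a difference of 10 points and an unadjusted p of 0.05 numbered 2 with at least 5 reads, against 1. The causes were not tested. No paired analysis was possible because the groups compared share no mouse.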
